A study of Homo sapiens with 24 samples.

Results

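The 2 single-gene knockouts of the miR-210 locus were compared directly with each other at 21% oxygen. The comparison used the 4 libraries labelled MIR210HG-KO and the 4 labelled MIR210-KO among the 12 normoxia libraries, 8 of 24 libraries in all, chosen by their labels. Both groups were HEK293T cells, a human embryonic kidney line that carries the SV40 large T antigen, kept for 24 h at 21% oxygen. The same lines after 24 h at 1% oxygen, another 8 libraries, and the unedited (WT) cells at 21% oxygen, 4 libraries, were used to place the differences. The labels do not say how the genes were removed, or whether a line is 1 clone or a pool of cells. They also do not say that the 4 libraries of a group came from separate cultures, so p-values measure the spread between libraries, which may be technical. Effects of the deletions and differences between clones cannot be told apart.

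MIR210HG is a long non-coding RNA on chromosome 11p15.5 whose primary transcript holds the hairpin of miR-210. Transcription of the locus is raised by hypoxia-inducible factor, and miR-210 is a widely used marker of low oxygen. miR-210 lowers messenger RNAs that carry a match to its seed, among them ISCU and other genes of mitochondrial respiration, while MIR210HG has been described as a regulator of glycolysis and of neighbouring genes.

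The 2 mature strands and the hairpin they are cut from are shown because they define what each knockout can remove. All 3 are from RefSeq, build GRCh38.p14, minus strand. The seed, bases 2 to 8, is in capitals in the mature strands, which lie at chr11:568112-568133 and chr11:568150-568171. In the hairpin, chr11:568089-568198, the capitals mark both mature strands.
hsa-miR-210-3p: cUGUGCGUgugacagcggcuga
hsa-miR-210-5p: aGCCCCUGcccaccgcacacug
MIR210 hairpin: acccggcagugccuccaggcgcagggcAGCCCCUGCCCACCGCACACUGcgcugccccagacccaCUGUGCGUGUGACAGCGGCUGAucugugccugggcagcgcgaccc

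The deposited positions place MIR210HG at chromosome 11, 565660 to 568457, and the hairpin gene MIR210 inside that span, at 568089 to 568198. MIR210HG had 99, 52, 86 and 118 counts in the MIR210-KO libraries and 0 counts in all 4 MIR210HG-KO libraries. In CPM (counts scaled to library size, per 1e6 counts) the MIR210-KO libraries held 3.497, 2.10, 3.59 and 4.71, against 5.70 ± 0.647 (SD, n = 4) in WT. All 4 MIR210-KO libraries lay above all 4 MIR210HG-KO libraries. The level was at least 119.7-fold lower in MIR210HG-KO, taking 3 counts over the group as the floor (edgeR quasi-likelihood test, adjusted p = 7.12e-14). MIR210HG thus had counts in every library labelled MIR210-KO, at a level below WT at 21% oxygen. Its log2 difference from WT there was -0.71, beside a median of -0.66 over its tested neighbours on 11p15.5. At 1% oxygen it was not lower, at 20.7 ± 1.46 CPM in MIR210-KO and 19.1 ± 1.72 in WT (SD, n = 4). The hairpin gene had 1 count over the 4 MIR210-KO libraries, 0 over the 4 MIR210HG-KO libraries and 3 over the 4 WT libraries, too few to compare. Mature miR-210 was not measured.

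Total counts of the 8 libraries ran from 25556776 to 30057743. The first principal component, 88.8% of the variance, separated the lines. MIR210HG-KO replicate 3 stood apart from its group on the second component (6.45%). In that library, genes of the highest of 4 GC content classes lay at a median of -0.29 (log2) from the mean of the other 3 libraries, and those of the lowest class at 0.20. The difference between the lines was flat over the same classes, with medians from 0.001 to 0.044. The 16 blood and endothelial markers summed to 4.67 to 5.26 CPM in MIR210-KO and to 5.07 to 6.60 CPM in MIR210HG-KO, with CD3E at 0 counts in both groups. The 16 hepatocyte and other line markers summed to 51.2 to 55.9 and 45.0 to 57.7 CPM, and their part in the results was not tested.

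Of 19952 genes tested, 9814 (49.2%) differed between the knockout lines at an adjusted p under 0.05, 4665 (23.4%) higher and 5149 (25.8%) lower in MIR210HG-KO. For 8863 genes (44.4%) the 4 libraries of one line did not overlap the 4 of the other. The 2 directions were nearly balanced in number but not in size. A difference of at least 2-fold was called for 2318 genes (11.6%), 547 higher and 1771 lower, and one of at least 32-fold for 110 genes (0.551%), 26 higher and 84 lower. Without MIR210HG-KO replicate 3, 9640 of the same 19952 genes were called, and 8908 of the 9814 were among them with the same direction. At 1% oxygen, where 10987 genes (55.1%) were called between the same lines, 9449 of the 9814 (96.3%) had the same direction and 7994 (81.5%) were called in it. The oxygen levels share no library. Of the 110 genes at least 32-fold apart, 108 were called in the same direction at 1% oxygen.

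The largest losses in MIR210HG-KO included SPOCK3, MDGA2 and MFAP2. SPOCK3, a secreted matrix proteoglycan (chromosome 4, 166733384 to 167234796), was at 18.8, 17.7, 17.9 and 21.3 CPM in the MIR210-KO libraries and at 0 in all 4 MIR210HG-KO libraries, at least 652-fold lower (adjusted p = 1.18e-21). MDGA2, a membrane-anchored suppressor of synapse formation, was at 14.8, 15.8, 13.7 and 15.46 CPM against 0, 0, 0 and 0.0410 CPM, where the last value is 1 count. The level was 1545-fold (95% counting interval 277 to 61070.0) lower in MIR210HG-KO. MFAP2, a microfibril protein of elastic matrix, was at 17.4, 18.1, 20.2 and 18.5 against 0, 0.0768, 0 and 0 CPM, 954-fold (95% counting interval 264 to 7884) lower. No overlap between the libraries of the lines was a condition for naming the largest losses and gains, so it is not a separate result for them. WT cells sat between the lines, at 1.49 ± 0.217 CPM for SPOCK3, 1.15 ± 0.378 for MDGA2 and 7.04 ± 0.680 for MFAP2 (SD, n = 4). These counting intervals cover counting error only.

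RBP7, which binds retinol inside cells, DOK6, an adaptor of receptor tyrosine kinases, and ATP2B3, a plasma membrane calcium pump, formed another pattern, in which WT was also low. RBP7 was at 9.11, 9.13, 10.2 and 8.35 CPM in MIR210-KO against 0, 0, 0.0746 and 0 in MIR210HG-KO, with WT at 0.100 ± 0.0505, and was 474-fold (95% counting interval 131 to 3918) lower in MIR210HG-KO. DOK6 was at 9.79, 8.32, 8.06 and 8.83 against 0.0386, 0.0384, 0 and 0 CPM, with WT at 0.143 ± 0.0899, 454-fold (95% counting interval 125 to 3751) lower. ATP2B3 was at 11.3, 11.3, 9.85 and 12.8 against 0.0386, 0.0384, 0 and 0.0410 CPM, with WT at 0.205 ± 0.161, 390.0-fold (95% counting interval 133 to 1894) lower. All 4 MIR210-KO libraries were far above both other lines for these genes. SORBS2, an adaptor of actin stress fibres, was at 8.69, 8.93, 8.56 and 8.71 CPM against 0.154, 0, 0 and 0 CPM (log2 difference -7.67, SE 0.33, adjusted p = 1.03e-17), and here MIR210HG-KO replicate 1 held all of the group's counts.

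GALC and CPNE7 were near 0 in MIR210HG-KO while WT stood nearer MIR210-KO. GALC, the lysosomal enzyme that breaks down galactosylceramide (chromosome 14, 87837820 to 87993665), was at 4.10, 5.74, 5.01 and 5.43 CPM in MIR210-KO against 0, 0, 0.0373 and 0 in MIR210HG-KO, with WT at 3.91 ± 0.365. The level was 519.8-fold (95% counting interval 92.9 to 20570.0) lower, and the MIR210HG-KO value rests on 1 count. CPNE7, a calcium-dependent membrane-binding protein, was at 12.3, 11.0, 11.2 and 11.4 against 0, 0.0384, 0 and 0 CPM, with WT at 8.79 ± 0.928, 1190.0-fold (95% counting interval 213 to 47050.0) lower. At 1% oxygen its log2 difference was -5.44, smaller than the -9.70 at 21% (difference -4.26, SE 0.85, adjusted p = 0.00293).

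**Figure D1:**
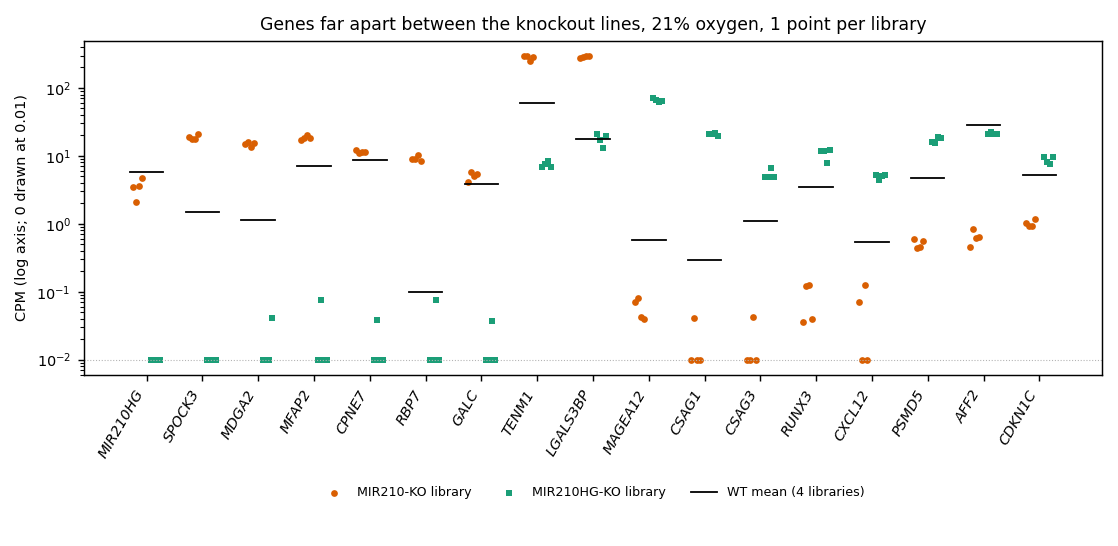
CPM on a log axis in each of the 4 MIR210-KO (circles) and 4 MIR210HG-KO (squares) libraries at 21% oxygen, with the WT mean as a line; values of 0 are drawn at 0.01. The genes shown were chosen with no overlap between the libraries of the lines as a condition. WT lay between the lines for SPOCK3, TENM1 and MAGEA12, near MIR210HG-KO for LGALS3BP, and above both for MIR210HG and AFF2.

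The largest gains in MIR210HG-KO were on the X chromosome, in a pair of cancer-testis antigen genes, which are normally restricted to germ cells. MAGEA12, a MAGE family antigen (chromosome X, 152733779 to 152737669), was at 0.0707, 0.0808, 0.0418 and 0.0400 CPM in the MIR210-KO libraries and at 70.1, 67.2, 63.0 and 63.3 CPM in the MIR210HG-KO libraries. The log2 difference was 10.03 (SE 0.23, adjusted p = 1.58e-25), with WT at 0.586 ± 0.385 CPM. CSAG1, its neighbour, was at 0, 0.0404, 0 and 0 against 21.1, 20.7, 21.5 and 19.7 CPM, 2121-fold (95% counting interval 380.3 to 83820.0) higher, with WT at 0.290 ± 0.230. The starts of the 2 genes are 44 bases apart on opposite strands. Both genes were high in every MIR210HG-KO library and at or near 0 in every MIR210-KO library.

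Other members of the family did not move as a block. CSAG3 was at 0, 0, 0.0418 and 0 against 4.82, 4.88, 6.71 and 4.83 CPM, 544-fold (95% counting interval 97.2 to 21520.0) higher, and MAGEA2, whose start is 37 bases from that of CSAG3, was at 0, 0, 0.0835 and 0 against 0.694, 1.15, 0.708 and 0.696 CPM, 41.5-fold (95% counting interval 11.2 to 349) higher. MAGEA2B was at 0, 0, 0.0418 and 0 against 0.926, 0.307, 0.410 and 0.410 CPM, 52.4-fold (95% counting interval 9.01 to 2109) higher. MAGEA6 and MAGEA3 went the other way, MAGEA6 at 2.23, 3.03, 1.92 and 2.68 against 0.0771, 0, 0.0746 and 0.123 CPM (log2 -5.10, SE 0.44, adjusted p = 1.54e-11) and MAGEA3 at 0.565, 0.687, 1.13 and 0.639 against 0, 0.115, 0.0746 and 0.0819 CPM (log2 -3.39, SE 0.63, adjusted p = 3.12e-05). The MAGEA3 difference did not pass at 1% oxygen (adjusted p = 0.0837). MAGEA2 with MAGEA2B, and MAGEA3 with MAGEA6, are near-identical copies, so how their reads were split is uncertain. CSAG1 and CSAG3 belong to 1 family, and how alike their sequences are was not measured. Of 15 cancer-testis antigens tested, 7 were higher, 5 lower and 3 not called.

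The windows around the MAGEA12 and CSAG1 starts overlap and are shown because the genes moved together (RefSeq, GRCh38.p14, chrX:152733507-152733806, plus strand, and chrX:152733672-152733971, minus strand). CG pairs are in capitals, 9 in the first and 16 in the second, against a median of 26 over the 12125 tested genes with a window. Genes at least 32-fold lower had a median of 21 (n = 61 with a window) and genes at least 32-fold higher of 17 (n = 17). Methylation of these windows was not measured.
MAGEA12 promoter: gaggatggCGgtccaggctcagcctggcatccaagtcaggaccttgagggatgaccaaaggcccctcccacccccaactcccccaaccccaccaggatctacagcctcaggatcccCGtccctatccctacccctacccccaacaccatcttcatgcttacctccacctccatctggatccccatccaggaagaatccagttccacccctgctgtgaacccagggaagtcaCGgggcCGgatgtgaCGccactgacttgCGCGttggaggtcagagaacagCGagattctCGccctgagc
CSAG1 promoter: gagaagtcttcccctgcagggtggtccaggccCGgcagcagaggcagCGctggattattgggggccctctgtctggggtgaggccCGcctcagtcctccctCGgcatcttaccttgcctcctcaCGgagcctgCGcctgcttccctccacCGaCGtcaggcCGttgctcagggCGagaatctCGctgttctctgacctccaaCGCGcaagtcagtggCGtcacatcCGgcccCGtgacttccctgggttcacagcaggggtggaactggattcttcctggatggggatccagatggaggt

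Several regulators were near 0 in MIR210-KO and present in MIR210HG-KO. RUNX3, a transcription factor of the RUNX family, was at 0.0353, 0.121, 0.125 and 0.0400 CPM against 11.8, 12.0, 7.75 and 12.2 CPM (log2 7.05, SE 0.31, adjusted p = 1.60e-18), with WT at 3.45 ± 0.374. CXCL12, a chemokine that signals through CXCR4, was at 0.0707, 0, 0.125 and 0 against 5.25, 4.46, 5.07 and 5.29 CPM (log2 6.56, SE 0.39, adjusted p = 1.59e-14), with WT at 0.545 ± 0.125. For both genes WT lay between the lines. PSMD5, a chaperone of proteasome assembly, was at 0.601, 0.444, 0.459 and 0.559 against 16.3, 15.6, 19.2 and 18.5 CPM (log2 5.05, SE 0.15, adjusted p = 5.49e-23), with WT at 4.73 ± 0.355. Its difference was smaller at 1% oxygen, 3.45 (difference 1.60, SE 0.22, adjusted p = 1.96e-05).

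For AFF2, PXMP4, CDKN1C, TCF24 and MKRN3 the low line was MIR210-KO and WT stood nearer MIR210HG-KO. AFF2, a nuclear factor linked to transcription elongation, was at 0.459, 0.848, 0.626 and 0.639 CPM in MIR210-KO and 21.0, 22.5, 21.2 and 21.2 in MIR210HG-KO, against 28.1 ± 1.55 in WT (log2 5.07, SE 0.18, adjusted p = 4.59e-21). CDKN1C, an imprinted inhibitor of cyclin-dependent kinases on 11p15.4, was at 1.02, 0.929, 0.919 and 1.16 against 9.53, 7.99, 7.72 and 9.67 CPM, with WT at 5.31 ± 0.928 (log2 3.11, SE 0.17, adjusted p = 4.65e-16). MKRN3, an imprinted gene of chromosome 15, was at 0, 0.121, 0.0418 and 0.519 against 3.70, 4.69, 3.73 and 4.79 CPM, with WT at 5.01 ± 0.216 (log2 4.63, SE 0.33, adjusted p = 2.27e-13). For AFF2 and CDKN1C no overlap between the lines was a condition of being named, and the lines did not overlap for MKRN3 either. The log2 difference was 3.33 for PXMP4, a peroxisomal membrane protein, and 2.88 for TCF24, a transcription factor (adjusted p = 1.29e-14 and 7.67e-17). PXMP4 and CDKN1C lie in raised segments of chromosomes 20 and 11 (medians 0.48 and 0.53), and AFF2, MKRN3 and TCF24 outside the shifted segments. Of 29 imprinted genes tested, 11 were higher and 4 lower, a share of 51.7% called against 49.2% of all tested genes. The third largest difference among them was that of KCNQ1, a potassium channel near CDKN1C (log2 2.25, SE 0.26, adjusted p = 7.11e-09). Of the 16 imprinted genes outside the shifted chromosome segments given with the chromosome medians, 2 were higher and 2 lower.

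Among protein-coding genes with at least 100 CPM in the higher line, the 6 that fell most were TENM1, LGALS3BP, GLDC, KIF1A, NPTX1 and NEFM. LGALS3BP and GLDC lie in lowered segments of chromosomes 17 and 9 (medians -0.36 and -0.62), and the others outside the shifted segments. TENM1, a teneurin of neuronal adhesion on the X chromosome, was at 291, 295, 247 and 289.7 CPM in MIR210-KO and 6.94, 7.49, 8.28 and 6.92 in MIR210HG-KO, with WT between at 60.3 ± 2.27 (log2 -5.24, SE 0.13, adjusted p = 7.12e-25). GLDC, the decarboxylase of the glycine cleavage system, was at 98.1, 114, 98.1 and 102 against 12.5, 11.3, 11.5 and 10.0 CPM, with WT at 63.6 ± 1.08 (log2 -3.18, SE 0.074, adjusted p = 1.87e-25). KIF1A, a kinesin of axonal vesicle transport, was at 235, 239.7, 219 and 244 against 35.1, 32.5, 25.4 and 32.6 CPM, with WT at 49.6 ± 1.44 (log2 -2.90, SE 0.078, adjusted p = 2.97e-24). No overlap between the lines was a condition for naming these abundant genes. NPTX1, a neuronal pentraxin of synapses, had a log2 difference of -2.69 and NEFM, the medium neurofilament, of -2.52 (adjusted p = 9.96e-25 and 1.02e-20). For NEFM, 38.9% of exon bases are shared with another gene, and a strand setting is not given in the sources used here.

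Of the 6 that rose most, MDK was raised by the largest log2 difference. MDK and AHNAK lie in a raised segment of chromosome 11 (median 0.51) and SLC2A4RG in one of chromosome 20 (0.48). MID1, LSS and HMGCS1 lie outside the shifted segments. MDK, the secreted growth factor midkine, was at 49.2, 52.5, 55.0 and 55.2 CPM in MIR210-KO and 211, 193, 176 and 187 in MIR210HG-KO, with WT at 147 ± 4.14 (log2 1.86, SE 0.083, adjusted p = 1.96e-18). MID1, a microtubule-associated ubiquitin ligase, was at 51.8, 53.03, 51.6 and 53.5 against 157, 155, 158 and 158 CPM, with WT at 91.9 ± 2.86 (log2 1.58, SE 0.051, adjusted p = 4.30e-22). AHNAK, a giant scaffold protein under the membrane, was at 60.9, 59.1, 47.9 and 58.9 against 163, 149.9, 132 and 158 CPM, with WT at 168 ± 12.0 (log2 1.41, SE 0.11, adjusted p = 1.13e-12). No overlap between the 2 lines was again a condition for naming these genes. For AHNAK WT stood with MIR210HG-KO. SLC2A4RG, a transcription factor gene, rose by 1.41 (log2, adjusted p = 1.15e-13), at 39.9, 43.3, 46.5 and 43.6 against 130.1, 128, 84.1 and 118 CPM, and MIR210HG-KO replicate 3 was the lowest of its group.

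Of 3489 long non-coding RNAs tested, 422 were higher and 565 lower in MIR210HG-KO (28.3% called), and of 14537 protein-coding genes 4039 were higher and 4345 lower (57.7%). LINC00470 was at 2.51, 4.04, 3.22 and 2.16 CPM in MIR210-KO and 0 in all 4 MIR210HG-KO libraries, at least 102-fold lower. LINC02381 was at 37.2, 39.6, 39.5 and 39.1 against 0.540, 0.807, 0.522 and 1.07 CPM (log2 -5.73, SE 0.13, adjusted p = 1.58e-25), with WT at 23.5 ± 0.483. Both were high in every MIR210-KO library. RNF144A-AS1 was 112-fold (95% counting interval 30.6 to 928) lower. AC015522.1 went the other way, at 0 in all 4 MIR210-KO libraries and 2.43, 2.11, 3.02 and 2.83 CPM in MIR210HG-KO, at least 88.3-fold higher. NRAV, described as a negative regulator of antiviral genes, was at 6.64, 6.10, 4.59 and 6.23 against 22.5, 21.7, 22.3 and 22.0 CPM (log2 1.90, SE 0.10, adjusted p = 1.05e-16), with WT at 6.12 ± 0.344. FZD10-DT and AP000786.1 rose by 2.11 and 2.43 (log2, adjusted p = 3.89e-13 and 3.39e-07).

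Interferon-stimulated genes, the antiviral genes switched on by interferon through STAT2 and IRF9, were lower in MIR210HG-KO. Among the 36 that could be tested, 24 fell, 3 rose and 9 did not pass, and the median log2 difference was -0.94 against 0.001 over all tested genes. LGALS3BP, a secreted glycoprotein, was at 275, 289, 296 and 291 CPM in MIR210-KO and 21.3, 17.3, 13.1 and 19.6 in MIR210HG-KO (log2 -4.01, SE 0.094, adjusted p = 1.91e-25). IFIH1, the cytosolic sensor of double-stranded RNA also called MDA5, was at 3.14, 3.64, 3.09 and 3.68 against 0.116, 0.0768, 0.0746 and 0.0819 CPM (log2 -5.21, SE 0.42, adjusted p = 3.47e-12). BST2, which tethers viruses to the cell, was at 8.02, 8.20, 9.77 and 6.99 against 0.501, 0.499, 0.783 and 0.819 CPM (log2 -3.66, SE 0.21, adjusted p = 1.34e-15). WT stood with MIR210HG-KO in all 3, at 17.8 ± 0.886, 0.153 ± 0.145 and 0.402 ± 0.232 CPM, and no MIR210-KO library overlapped the other line. Over the list, the median was 0.73 for MIR210-KO against WT and -0.15 for MIR210HG-KO against WT, 2 comparisons that share the WT libraries.

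Of the transcription factors of the pathway, STAT2 and IRF9 were among the 3 higher members, at log2 0.37 and 0.59 (adjusted p = 1.33e-05 and 0.00428). At 1% oxygen 23 of the 27 called members were called in the same direction. Of the 18 members outside the shifted chromosome segments, 14 were lower and 1 higher, with a median of -1.32. In the MHC class I and antigen processing list 6 of 20 were higher and 8 lower, and of the 9 outside shifted segments 1 was higher and 5 lower. ERAP2, a peptide-trimming enzyme of the endoplasmic reticulum, was at 5.12, 5.25, 4.55 and 4.71 against 0.0386, 0.192, 0.186 and 0.123 CPM (log2 -5.14, SE 0.28, adjusted p = 2.45e-16). NLRC5, the transactivator of class I genes, had a log2 difference of -3.17 (adjusted p = 1.28e-14), whereas HLA-E, a class I molecule in the raised first 40 Mb of chromosome 6, rose by 0.71 (log2, adjusted p = 1.56e-12).

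Promoter windows of these genes, 250 bases before to 50 after the start, were searched on both strands for the interferon-stimulated response element core GAAANNGAAA. It was found in 20 of the 27 list members that have a window, and in 2.8% of the 12125 tested genes with one. Of the 20 members, 17 were lower and none higher, and of the 7 without the motif 4 were lower and 2 higher. Over all 339 tested genes that hold it, 114 (33.6%) were lower and 69 higher, with a median of -0.072. The 339 include the 20 members. Of all 19952 tested genes 25.8% were lower, and of the 14537 protein-coding ones 4345. The share lower among all genes with a window is not given here, so the 33.6% has no like share beside it. The motif, in capitals, is shown with 10 bases on each side for the 6 members with the largest differences among those that hold it, and then for 2 of the 3 that hold it and were not called (RefSeq, GRCh38.p14, strand of the gene).
IFIH1: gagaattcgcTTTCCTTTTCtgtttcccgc
LGALS3BP: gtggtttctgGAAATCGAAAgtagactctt
BST2: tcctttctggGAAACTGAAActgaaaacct
DTX3L: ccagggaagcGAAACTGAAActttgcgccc
OAS3: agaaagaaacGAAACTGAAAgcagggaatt
SAMD9: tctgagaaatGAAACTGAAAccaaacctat
TRIM21: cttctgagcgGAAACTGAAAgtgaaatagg
IFI27: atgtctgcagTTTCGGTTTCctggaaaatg

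These windows lie at chr2:162318824-162318853 for IFIH1, chr17:78979962-78979991 for LGALS3BP, chr19:17405741-17405770 for BST2, chr3:122564322-122564351 for DTX3L, chr12:112938321-112938350 for OAS3 and chr7:93118096-93118125 for SAMD9. Those of TRIM21 and IFI27 lie at chr11:4393666-4393695 and chr14:94110618-94110647. DTX3L, a ubiquitin ligase, fell by a log2 of 3.18, OAS3, an oligoadenylate synthetase, by 3.10 and SAMD9, an antiviral factor, by 2.48. TRIM21, an antibody receptor in the cytosol with the same core as BST2, had a log2 difference of -0.18 (adjusted p = 0.287), and IFI27 of 0.025 (adjusted p = 0.879). Both lie in raised chromosome segments, with medians of 0.53 and 0.40. EPSTI1, the member not called and not shown, lies outside the shifted segments and had a log2 difference of -0.27.

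**Figure D2:**
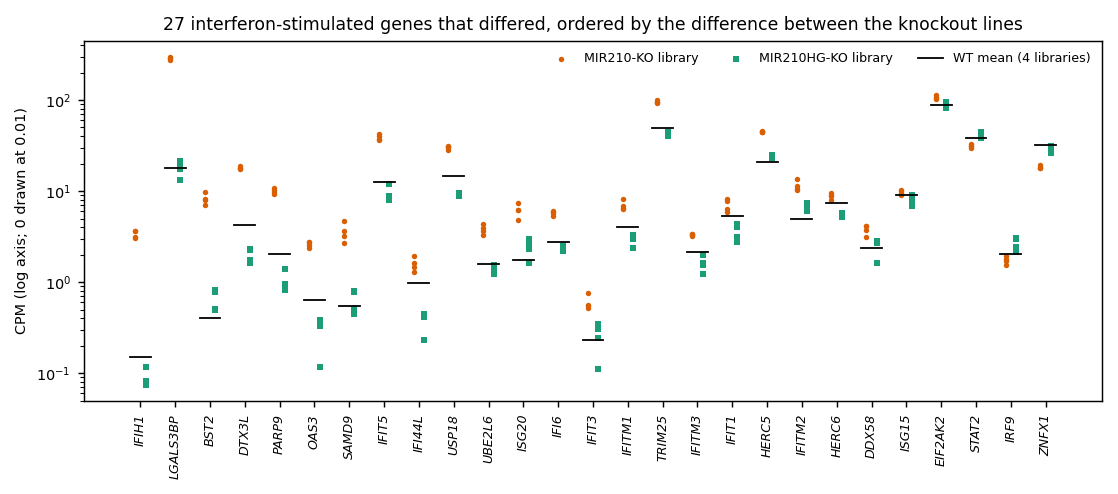
CPM on a log axis for the 27 interferon-stimulated genes that differed between the lines, in each MIR210-KO (circles) and MIR210HG-KO (squares) library at 21% oxygen, with the WT mean as a line, ordered by the difference. From IFIH1 to USP18 the MIR210HG-KO libraries and the WT mean lay below all 4 MIR210-KO libraries, and at the right end the 3 higher members, STAT2, IRF9 and ZNFX1, were reversed.

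Messenger RNAs reported as miR-210 targets differed in both directions. Of 37 tested, 10 were higher in MIR210HG-KO, 13 lower and 14 not called, a share of 62.2% called against 57.7% of all tested protein-coding genes, and the median was -0.006. ISCU, the iron-sulfur scaffold protein and best known target, was at 58.0, 55.8, 57.3 and 56.2 CPM in MIR210-KO and 61.1, 58.8, 60.7 and 57.2 in MIR210HG-KO (log2 0.065, SE 0.060, adjusted p = 0.392), and its libraries overlapped. The largest differences were in other members. BDNF, a neurotrophin, was at 1.06, 0.969, 0.501 and 0.719 against 0.193, 0.307, 0.112 and 0.0819 CPM (log2 -2.20, SE 0.41, adjusted p = 3.91e-05). HOXA9, a homeobox factor, was at 124, 111, 125 and 118 against 63.9, 60.3, 75.7 and 63.5 CPM (log2 -0.86, SE 0.059, adjusted p = 8.33e-14), with 27.0% of its exon bases shared with another gene. Both fell, with no overlap between the lines. AIFM3, a mitochondrial flavoprotein, was at 0.318, 0.202, 0.0418 and 0.0799 against 0.501, 0.307, 0.634 and 0.287 CPM (log2 1.37, SE 0.52, adjusted p = 0.0284), a call at low counts whose libraries overlapped and that was lost without MIR210-KO replicate 3 or 4 or MIR210HG-KO replicate 1 or 3. GPD1L, an enzyme of glycerol 3-phosphate metabolism, fell by a log2 of 0.44 and EFNA3, an ephrin ligand, rose by 0.36 (adjusted p = 1.26e-08 and 0.00837).

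Seed matches are shown for 5 of these genes, from the 3' UTR of 1 GENCODE 29 transcript per gene (GRCh38), because seed pairing is how miR-210-3p recognises its targets. The bases that pair with the seed are in capitals, with the A after them where there is one.
ISCU: gagctatgagatACGCACAAta
AIFM3: cgtaaaattaaaACGCACAAat
GPD1L: agctttgctgaaACGCACAtt
EFNA3: aggacctatgcaACGCACAga
HOXA9: cctccaccatcccCGCACAAag

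Across all tested protein-coding genes with a 3' UTR, those with an 8-base match (73 genes) had a median log2 difference of 0.007, with 18 higher and 21 lower. The 446 genes with only a 7-base match had a median of -0.046, with 121 higher and 158 lower, and the 13867 without one had -0.004. At 1% oxygen the 3 medians were 0.047, -0.069 and 0.003. The shares called were 53.4%, 62.6% and 57.8%. All 3 medians thus lay within 0.05 of 0 at 21% oxygen. The hairpin lies inside MIR210HG, which had 0 counts in MIR210HG-KO, and mature miR-210 was not measured. Both lines may lack miR-210, so a comparison between them cannot show the effect of losing it. Against WT, the medians in the same order were 0.047, 0.067 and 0.024 for MIR210-KO. For MIR210HG-KO they were 0.064, -0.01 and -0.0, with the WT libraries shared.

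The difference between the lines in integrated stress response genes depended on oxygen. In this pathway ATF4 is translated when eIF2 is phosphorylated and switches on genes of amino acid synthesis and transport. Of 37 effectors tested at 21% oxygen, 31 were lower in MIR210HG-KO, 4 higher and 2 not called, and the median was -0.42. At 1% oxygen the median was 0.11. For 27 of the 37 the difference itself depended on oxygen, against 707 of 19952 genes (3.54%). At 1% oxygen 12 effectors were called in the opposite direction and 12 in the same direction. Of the 9814 genes called at 21%, 54 were called in the opposite direction at 1% and 7994 in the same. The count of 707 was 1106 without MIR210HG-KO replicate 3 of normoxia, 457 without MIR210-KO replicate 2 of normoxia and 467 without MIR210HG-KO replicate 4 of hypoxia. Without the first of these, 28 effectors were lower and 28 depended on oxygen. Oxygen level and deposited table cannot be told apart.

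NUPR1, a stress-induced nuclear protein, was at 6.15, 6.70, 6.51 and 6.47 CPM in the MIR210-KO libraries and 0.810, 0.960, 0.447 and 0.574 in the MIR210HG-KO libraries, with WT at 9.37 ± 0.554 (log2 -3.20, SE 0.20, adjusted p = 4.37e-15). At 1% oxygen its difference was -1.18 (difference between oxygen levels -2.02, SE 0.26, adjusted p = 4.83e-06). SLC1A4, a transporter of serine and alanine, was at 20.2, 22.5, 20.8 and 22.1 against 10.7, 9.45, 7.98 and 10.2 CPM, with WT at 25.8 ± 1.18 (log2 -1.16, SE 0.076, adjusted p = 2.65e-14), and its difference at 1% oxygen was -0.41 (adjusted p of the difference = 1.50e-05). The lines did not overlap at 21% oxygen for either gene, and WT was above both. FGF21, a secreted metabolic hormone, was at 0.389, 0.202, 0.209 and 0.160 against 0, 0.115, 0.0373 and 0.0819 CPM (log2 -1.99, SE 0.78, adjusted p = 0.0350), a call lost without MIR210-KO replicate 1 or MIR210HG-KO replicate 1 or 3.

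Other effectors changed sign. CHAC1, which degrades glutathione, had a log2 difference of -0.94 at 21% oxygen and 0.63 at 1% (adjusted p = 4.96e-07 and 8.52e-06). SLC7A11, the cystine transporter, went from -0.27 to 1.06 (adjusted p = 0.0125 and 4.40e-12), and STC2, a secreted glycoprotein, from -0.85 to 0.21 (adjusted p = 5.88e-16 and 3.26e-04). For these 3 genes the difference between oxygen levels passed the test (adjusted p = 4.22e-07, 4.05e-08 and 3.73e-12). ATF4 itself was at -0.25 and 0.11 (adjusted p = 9.10e-04 and 0.118), and ATF3 at -0.26 and 0.79 (adjusted p = 0.00397 and 1.25e-11). VLDLR, CBS and DDIT4, a lipoprotein receptor, the first enzyme of transsulfuration and an inhibitor of mTORC1, were lower in MIR210HG-KO at both oxygen levels. Against WT, whose libraries both comparisons share, the list's median at 21% oxygen was -0.57 for MIR210-KO and -1.05 for MIR210HG-KO.

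The amino acid response element that ATF4 and C/EBP factors bind was searched as TGATGNAA on both strands. It was in 5 of the 31 effectors with a promoter window, against 1.69% of the tested genes with one, and all 5 were lower at 21% oxygen. Of the 26 effectors without it 20 were lower and 4 higher. Of all 205 tested genes that hold it, the 5 effectors among them, 70 (34.1%) were lower and 46 higher. Of all tested genes 25.8% were lower, and of the 14537 protein-coding ones 4345. The share lower among all genes with a window is not given here. It is shown for the 3 members with the largest differences, at chr19:48755460-48755487 (plus strand) for FGF21, chr15:40953252-40953279 (plus strand) for CHAC1 and chr7:97872459-97872486 (minus strand) for ASNS, asparagine synthetase (RefSeq, GRCh38.p14).
FGF21: aacaccaggaTTGCATCAgggaggagga
CHAC1: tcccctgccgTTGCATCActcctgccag
ASNS: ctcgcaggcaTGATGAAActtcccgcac

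**Figure D3:**
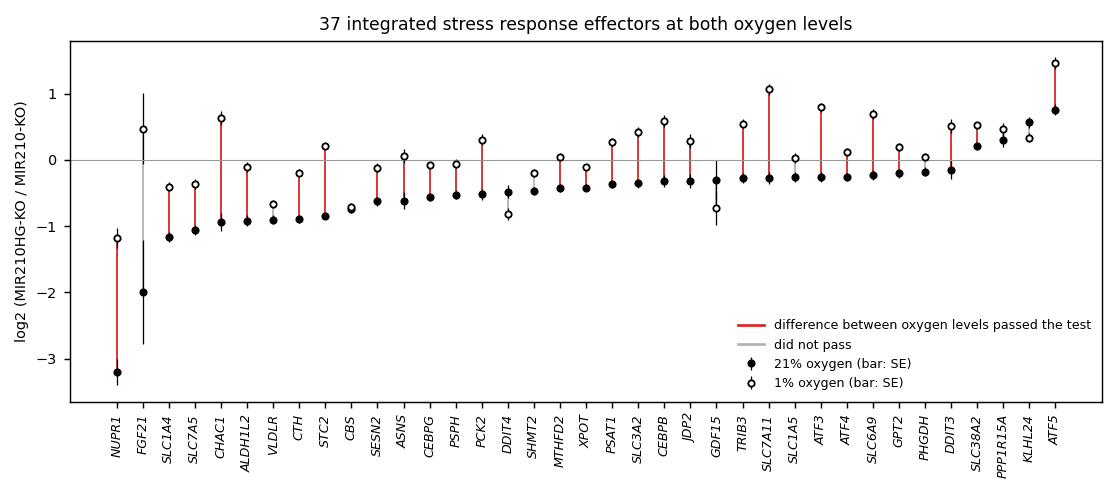
Log2 difference between MIR210HG-KO and MIR210-KO for the 37 integrated stress response effectors at 21% (filled) and 1% oxygen (open), with SE bars and a red line where the difference between oxygen levels passed the test. Most filled points lie below 0, while the open points lie on both sides of it, above 1 for SLC7A11 and ATF5.

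In the NOTCH pathway, where ligands on one cell activate receptors on the next, 18 of 31 tested were lower and 4 higher, with a median of -0.41. The ligands JAG1, JAG2, DLL1, DLL3 and DLL4 were all lower, with log2 differences of -0.79, -1.36, -1.05, -0.89 and -0.70 (adjusted p from 1.49e-12 to 0.0121). Of the receptors, NOTCH3 was lower (-0.26, adjusted p = 0.0205), while NOTCH1 and NOTCH2, at 0.24 and 0.10, did not pass (adjusted p = 0.0503 and 0.390). Among the target repressors, HES7 was at 6.75, 7.47, 9.90 and 8.99 CPM against 0.656, 0.653, 0.522 and 0.287 CPM (log2 -3.95, SE 0.20, adjusted p = 3.22e-17), and HES5 at 1.06, 1.29, 1.46 and 1.32 against 0.270, 0.115, 0.0373 and 0.287 CPM (log2 -2.84, SE 0.45, adjusted p = 2.67e-06). DTX1, a ubiquitin ligase of the pathway, was at 1.13, 0.969, 1.42 and 0.599 against 0.116, 0.0384, 0.0373 and 0.0410 CPM (log2 -4.05, SE 0.66, adjusted p = 4.32e-06). The lines did not overlap in these 3 genes, and the low values rest on few counts. At 1% oxygen 20 of the 22 called members were called in the same direction.

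The WNT pathway was mixed, with 13 of 48 tested higher and 17 lower, a share of 62.5% called against 57.7% of all tested protein-coding genes. Its largest differences were in secreted inhibitors. NOTUM, which removes the lipid from WNT proteins, was at 4.17, 4.93, 5.09 and 4.99 CPM against 0.463, 0.346, 0.224 and 0.574 CPM, and SFRP1, which binds WNT outside the cell, at 32.6, 30.7, 29.9 and 30.0 against 4.28, 4.69, 3.65 and 3.4004 CPM. The log2 differences were -3.58 (SE 0.24) and -2.94 (SE 0.094), with adjusted p = 3.89e-14 and 3.68e-22. In both, every MIR210HG-KO library was lower, and WT was nearer to them, at 1.02 ± 0.254 and 6.87 ± 0.659 CPM. WNT7B, a ligand, fell by a log2 of 1.41 (adjusted p = 2.95e-06).

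In the TGF-beta, activin and BMP list 16 of 43 were higher and 13 lower. FST, follistatin, which binds activin, was at 1.59, 0.969, 1.96 and 2.00 CPM in MIR210-KO and 0.270, 0.346, 0.522 and 0.123 in MIR210HG-KO (log2 -2.34, SE 0.35, adjusted p = 8.99e-07). The BMP target ID1 was at 4.17, 4.40, 4.30 and 5.87 against 14.7, 16.1, 14.4 and 14.01 CPM (log2 1.66, SE 0.13, adjusted p = 3.95e-12), with WT at 14.3 ± 1.67, and its difference was smaller at 1% oxygen (0.95, adjusted p of the difference = 0.0339). FST was thus lower and ID1 higher, each with no overlap between the lines, and a link between them was not tested. ID1 lies in a raised segment of chromosome 20 with a median of 0.48. BMP5, a ligand, rose by 2.25 (log2, adjusted p = 1.14e-04) from a low level. Of 19 retinoid genes tested, 6 were higher and 8 lower. After RBP7, the largest were STRA6, the retinol importer (log2 1.79, adjusted p = 1.47e-05), and RXRG, a retinoid X receptor (log2 -1.68, adjusted p = 2.29e-07).

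Immediate-early genes, which respond within minutes to growth factor signalling, were lower for 20 of 31 tested and higher for 6, with a median of -0.71 at 21% and -0.28 at 1% oxygen. DUSP2, a phosphatase of ERK, was at 7.56, 6.75, 9.19 and 7.39 CPM in MIR210-KO and 0.0771, 0.230, 0 and 0.246 in MIR210HG-KO, with WT at 2.57 ± 0.650 (log2 -5.79, SE 0.34, adjusted p = 1.58e-15). EGR2, a zinc finger factor, was at 1.201, 1.25, 1.21 and 0.679 against 0.270, 0.0768, 0.373 and 0.164 CPM (log2 -2.27, SE 0.34, adjusted p = 1.43e-06), and SPRY4, an inhibitor of receptor tyrosine kinases, at 0.495, 0.444, 0.376 and 0.160 against 0.116, 0, 0.0373 and 0 CPM (log2 -3.13, SE 0.82, adjusted p = 0.00182). Each was higher in all 4 MIR210-KO libraries, but SPRY4 did not pass at 1% oxygen (adjusted p = 0.268). MYC, which drives growth, fell from 404 ± 20.7 to 126 ± 10.8 CPM (SD, n = 4 each; log2 -1.69, adjusted p = 2.66e-20), while FOS, at 0.29, did not pass (adjusted p = 0.374).

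Of 37 HOX genes tested, which set position along the body axis, 24 were lower and 4 higher, with a median of -0.40. The 3 largest differences were in the HOXB cluster. HOXB5 was at 37.2, 34.4, 38.7 and 35.2 CPM against 12.7, 12.7, 13.0 and 13.4 CPM (log2 -1.49, SE 0.074, adjusted p = 2.40e-17), HOXB2 at 19.6, 20.03, 20.3 and 17.0 against 7.33, 7.91, 6.67 and 6.51 CPM (log2 -1.44, SE 0.10, adjusted p = 2.08e-13) and HOXB6 at 81.0, 78.8, 89.9 and 89.3 against 38.1, 37.1, 32.7 and 35.6 CPM (log2 -1.24, SE 0.064, adjusted p = 5.62e-17). The lines did not overlap in any of the 3. The HOXB cluster lies in a segment of chromosome 17 whose genes had a median of -0.36. For HOXB6, 32.9% of exon bases are shared with another gene, so its reads could not be assigned with certainty. Of the 28 HOX genes outside shifted segments, 15 were lower and 4 higher, with a median of -0.30.

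In bulk libraries, fewer cells of a kind and less RNA per cell cannot be told apart. Of 33 neuronal cytoskeleton and vesicle genes, 19 were lower and 4 higher, with a median of -1.06, and the summed level of all 41 listed was 1729 to 1763 CPM in MIR210-KO, 971 to 1044 in MIR210HG-KO and 1249 to 1271 in WT. DPYSL3, a regulator of axon growth, was at 15.9, 17.3, 15.9 and 14.3 CPM against 2.70, 3.07, 2.54 and 3.11 CPM (log2 -2.47, SE 0.11, adjusted p = 3.29e-18), with WT at 3.70 ± 0.336. ENO2, neuron-specific enolase, was at 44.6, 50.5, 50.4 and 44.5 against 9.30, 8.64, 8.05 and 9.79 CPM (log2 -2.41, SE 0.064, adjusted p = 2.97e-24), with WT at 18.1 ± 0.757. In ENO2 the difference was smaller at 1% oxygen (-2.01, adjusted p of the difference = 0.00596). Neural adhesion and guidance genes went both ways, with 14 of 42 higher and 19 lower. After SPOCK3 and MDGA2 the largest was SPOCK1, another matrix proteoglycan, at 4.27, 4.93, 4.55 and 4.59 against 0.0386, 0.192, 0.186 and 0.328 CPM (log2 -4.61, SE 0.30, adjusted p = 2.16e-14).

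Of 36 epithelial junction genes, 20 were lower and 3 higher, with a median of -0.63. MARVELD2, tricellulin, which seals the corners between cells, was at 7.81, 8.04, 8.27 and 6.63 CPM against 0.309, 0.461, 0.373 and 0.328 CPM (log2 -4.37, SE 0.20, adjusted p = 2.03e-18), and CLDN1, a tight junction claudin, at 2.23, 2.75, 2.84 and 3.28 against 0.463, 0.307, 0.336 and 0.0819 CPM (log2 -3.19, SE 0.35, adjusted p = 3.70e-09). SPINT1, a protease inhibitor, was at 13.6, 13.97, 14.7 and 14.3 against 2.66, 2.88, 1.71 and 2.29 CPM (log2 -2.57, SE 0.14, adjusted p = 1.17e-16). WT was nearer to MIR210HG-KO for the 3 genes, at 0.831 ± 0.143, 0.568 ± 0.116 and 1.79 ± 0.277 CPM.

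Mesenchymal and matrix genes were lower for 25 of 43 and higher for 8. The exceptions included SNAI2, a repressor of epithelial genes, at 16.3, 15.51, 16.3 and 17.2 CPM against 65.8, 61.6, 82.5 and 63.9 CPM (log2 2.07, SE 0.081, adjusted p = 6.50e-20), and COL3A1, a fibrillar collagen, at 3.82, 4.48, 4.47 and 3.48 against 16.05, 16.2, 15.3 and 15.9 CPM (log2 1.97, SE 0.10, adjusted p = 6.00e-17). For both WT stood near MIR210HG-KO, at 50.8 ± 2.12 and 14.6 ± 1.19 CPM. Of 28 kidney development and nephron genes 14 were lower and 3 higher, a share of 60.7% called against 57.7% of all tested protein-coding genes. OSR1, a factor of early kidney mesoderm, was at 0.918, 0.848, 0.960 and 1.48 CPM against 0.0386, 0.0384, 0.149 and 0.0410 CPM, SYNPO, a podocyte actin protein, at 11.9, 11.6, 12.5 and 11.6 against 1.85, 2.53, 2.01 and 2.62 CPM, and PODXL, podocalyxin, at 109.6, 115, 109 and 111 against 29.3, 30.4, 30.1 and 30.6 CPM. The log2 differences were -3.88, -2.40 and -1.88 (adjusted p = 1.02e-07, 3.98e-18 and 1.21e-22). No library of one line reached the other in these genes, and the nephron marker UMOD was at 0 counts in both lines.

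Of the blood and endothelial list 4 of 16 could be tested, with CD14 lower (-1.0002, adjusted p = 0.0142), a call lost without MIR210-KO replicate 3 or MIR210HG-KO replicate 3. Of the 9 fibroblast and muscle markers tested 2 were higher and 3 lower, with MYOD1 at -2.22 and TAGLN at 0.84 (adjusted p = 1.78e-05 and 2.82e-05). Of the 7 hepatocyte and other line markers tested, PMEL (-1.02) and ESR1 (-1.23) were lower (adjusted p = 2.39e-05 and 0.0187), the latter lost when any of 4 single libraries was left out.

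All 17 tested members of the BCL2 family, which controls mitochondrial cell death, differed between the lines, 8 higher and 9 lower. Of all tested protein-coding genes 57.7% were called. Without MIR210HG-KO replicate 3 the counts were 6 and 9. BMF, a death-promoting BH3-only protein, was at 2.37, 3.07, 2.30 and 2.44 CPM in MIR210-KO and 10.8, 9.87, 9.47 and 10.00 in MIR210HG-KO, with WT at 12.6 ± 0.664 (log2 1.98, SE 0.11, adjusted p = 7.13e-16). Its difference was smaller at 1% oxygen (1.04, adjusted p of the difference = 1.04e-04). HRK, another BH3-only protein, was at 34.0, 33.9, 33.4 and 31.1 against 12.8, 11.4, 12.0 and 12.2 CPM (log2 -1.45, SE 0.070, adjusted p = 1.06e-17), and BIK at 2.12, 1.53, 1.46 and 1.80 against 0.849, 0.422, 0.708 and 0.410 CPM (log2 -1.53, SE 0.29, adjusted p = 4.90e-05). The BH3-only members thus went both ways, each with no overlap between the lines. Among the protectors BCL2 fell by a log2 of 0.69 and BCL2L1 rose by 0.43 (adjusted p = 2.40e-09 and 6.49e-05). Of the pore formers BAX fell by 0.55 and BAK1 rose by 0.74 (adjusted p = 2.39e-07 and 8.15e-11). Of the 17 members, 4 lie in raised chromosome segments. Of the 13 outside shifted segments 4 were higher and 9 lower, with a median of -0.55.

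Of 31 p53 targets, 21 were lower and 2 higher, in cells where large T antigen binds p53. EDA2R, a receptor of the TNF family, was at 34.3, 36.3, 33.7 and 29.8 CPM against 4.55, 4.49, 4.36 and 3.48 CPM (log2 -2.99, SE 0.11, adjusted p = 4.85e-21), with WT between at 19.8 ± 1.62. PLK2, a stress-regulated kinase, was at 8.69, 9.45, 8.06 and 8.63 against 2.85, 2.77, 3.06 and 2.54 CPM and FAS, a death receptor, at 19.5, 18.9, 19.4 and 17.9 against 6.40, 6.87, 7.08 and 5.94 CPM (log2 -1.63 and -1.53, adjusted p = 1.62e-14 and 6.97e-16). The libraries of the lines did not overlap in any of the 3. FAS lies in a lowered segment of chromosome 10, and of the 25 targets outside shifted segments 18 were lower and 1 higher.

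Genes of mitosis were higher in MIR210HG-KO. Of 54 tested, 45 were higher and 3 lower, with a median of 0.38, and none depended on oxygen. UBE2C, the ubiquitin-conjugating enzyme of the anaphase-promoting complex, was at 78.6, 78.7, 83.8 and 74.6 CPM against 159, 159, 157 and 157 CPM (log2 1.00, SE 0.057, adjusted p = 6.97e-16). G2E3, a ubiquitin ligase of G2, was at 52.0, 49.96, 49.5 and 45.3 against 81.9, 86.8, 115 and 92.5 CPM (log2 0.94, SE 0.084, adjusted p = 4.14e-11), and INCENP, of the chromosomal passenger complex, at 111, 109, 103 and 121 against 229, 218, 179 and 209 CPM (log2 0.91, SE 0.073, adjusted p = 2.95e-12). Each of the 3 lies in a raised segment, and the lines did not overlap in any of them. Of the 40 members outside shifted segments 36 were higher and none lower, with a median of 0.40.

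Cholesterol synthesis genes, driven by SREBP2, were higher for 19 of 26 and lower for 1, with a median of 0.54 at 21% and 0.69 at 1% oxygen. HMGCS1, which makes HMG-CoA and shares some exon bases with another gene, was at 65.3, 70.8, 64.3 and 62.4 CPM in MIR210-KO and 177, 181, 202 and 183 in MIR210HG-KO, with WT at 140.3 ± 5.00 (log2 1.5008, SE 0.057, adjusted p = 3.38e-20), and its difference was larger at 1% oxygen (1.89, adjusted p of the difference = 0.00361). LSS, lanosterol synthase, was at 56.1, 58.2, 57.9 and 61.6 against 191, 189, 143 and 177 CPM, with WT at 152 ± 7.61 (log2 1.58, SE 0.069, adjusted p = 8.35e-19). WT was nearer to MIR210HG-KO in both. The lower member was NPC1L1, an intestinal cholesterol importer, at 2.61, 2.95, 2.13 and 2.80 against 0.733, 0.999, 0.969 and 0.983 CPM (log2 -1.51, SE 0.23, adjusted p = 1.75e-06).

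Lysosomal genes were higher for 21 of 47 and lower for 12. Besides GALC, GLA, which removes terminal galactose from glycolipids, was at 673, 698, 699.6 and 648 CPM against 134, 132, 146 and 134 CPM (log2 -2.31, SE 0.076, adjusted p = 5.60e-22), with WT between at 286 ± 7.06. TPP1, a peptidase with 14.4% of its exon bases shared with another gene, was at 15.1, 17.8, 17.4 and 14.9 against 58.4, 60.4, 52.7 and 59.3 CPM (log2 1.82, SE 0.071, adjusted p = 5.47e-20), with WT at 49.5 ± 3.41. TPP1 lies in a raised segment of chromosome 11 (median 0.53). So 2 glycolipid hydrolases were low in MIR210HG-KO while the peptidase was high, with no overlap in either direction. Proteasome genes were higher for 17 of 44 and lower for 8, a share of 56.8% called against 57.7% of all tested protein-coding genes. After PSMD5 the largest were PSMA7, a core subunit, at 146, 149.9, 162 and 155 against 309, 284, 239 and 274 CPM, and PSMG1, an assembly chaperone, at 70.2, 66.2, 70.7 and 64.7 against 113, 112, 134 and 114 CPM (log2 0.85 and 0.80, adjusted p = 7.78e-10 and 1.24e-10). Both lie in raised segments, and of the 27 members outside shifted segments 5 were higher and 4 lower.

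**Figure D4:**
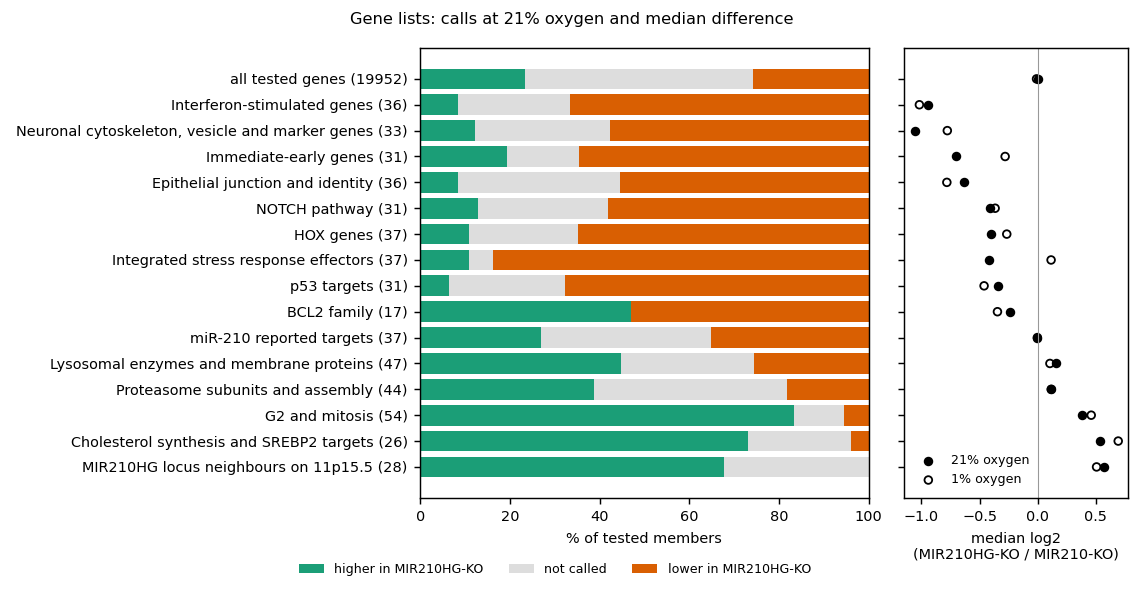
Left, the share of tested members called higher, not called and called lower in MIR210HG-KO at 21% oxygen for 15 gene lists and for all tested genes, with the number tested in brackets; right, the median log2 difference at 21% (filled) and 1% oxygen (open). Interferon-stimulated genes have a median of -0.94 and cholesterol genes of 0.54, and the integrated stress response list is the one whose medians lie on opposite sides of 0, apart from the values near 0.

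Differences between the lines also followed chromosome position. The median log2 difference was 0.50 over the 1043 tested genes of chromosome 11, 0.48 over the 499 of chromosome 20 and 0.38 over the 653 of chromosome 14, against -0.42 over the 792 of chromosome 10. Of 282 windows of 10 Mb with at least 20 tested genes, 63 had a median beyond 0.3 in either direction, and joined neighbours formed 23 segments. Among them, 160 to 190 Mb of chromosome 4 had a median of -0.99, with 67 of 84 genes lower, and 0 to 40 Mb of chromosome 9 had -0.62, with 146 of 210 lower. The first 40 Mb of chromosome 6 had a median of 0.47, with 234 of 426 genes higher. At 1% oxygen the chromosome medians were 0.48, 0.47, 0.37 and -0.41 for chromosomes 11, 20, 14 and 10. Inside the segments 67.1% of genes were called and outside 44.0%. DNA copy number was not measured, and its part in these values was not tested.

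The line that stood away from WT differed by chromosome. For chromosome 11 the median was -0.50 in MIR210-KO against WT and -0.015 in MIR210HG-KO against WT, and for chromosome 20 it was -0.46 and 0.005. For chromosome 14 it was 0.034 in MIR210-KO and 0.40 in MIR210HG-KO. These comparisons share the WT libraries. SPOCK3 and SORBS2 lie in the lowered segment of chromosome 4, but GALC, nearly absent from MIR210HG-KO, lies in a raised segment of chromosome 14.

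The neighbours of MIR210HG on 11p15.5 rose with their chromosome. Of 28 tested, 19 were higher in MIR210HG-KO and none lower, with a median of 0.57, close to the 0.53 of the segment they lie in, the first 20 Mb of chromosome 11. CD151, a tetraspanin, was at 55.8, 60.7, 61.5 and 58.5 CPM in MIR210-KO and 144, 136, 112 and 124 in MIR210HG-KO, with WT at 119 ± 2.75 (log2 1.13, SE 0.080, adjusted p = 1.66e-13). CEND1, a neuronal cell cycle exit protein, was at 0.495, 0.202, 0.251 and 0.599 against 2.16, 0.999, 0.671 and 1.07 CPM (log2 1.64, SE 0.36, adjusted p = 3.27e-04), and EPS8L2, an actin regulator, at 1.24, 1.13, 1.13 and 1.08 against 2.39, 3.03, 1.94 and 2.42 CPM (log2 1.09, SE 0.25, adjusted p = 5.48e-04). The libraries of the lines did not overlap in these 3 genes. Of the genes nearest to MIR210HG, RASSF7, a Ras-association protein, had a log2 difference of 0.71 and PHRF1, a ubiquitin ligase, of 0.61 (adjusted p = 5.65e-06 and 7.27e-09), while IRF7, an interferon regulatory factor, had 0.50 and did not pass (adjusted p = 0.313). Over the list the median was -0.66 for MIR210-KO against WT and 0.004 for MIR210HG-KO against WT.

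**Figure D5:**
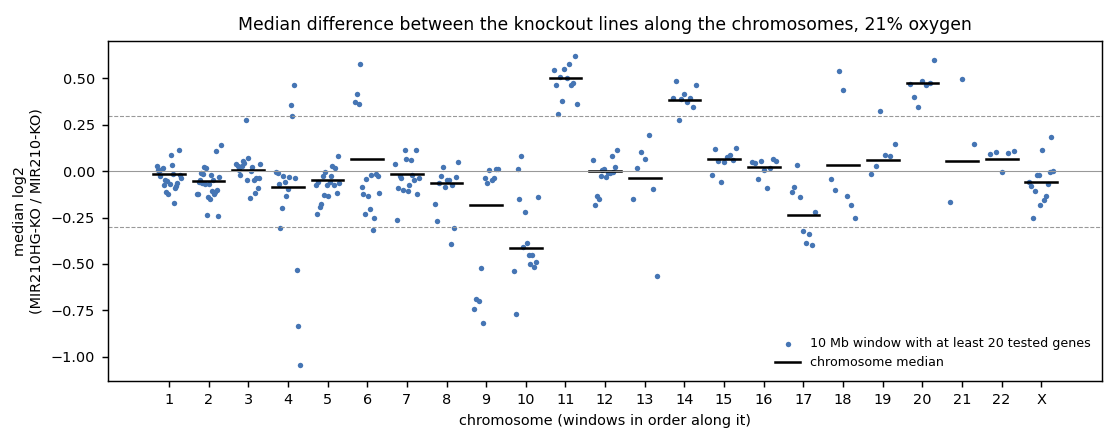
Median log2 difference between MIR210HG-KO and MIR210-KO at 21% oxygen in each 10 Mb window with at least 20 tested genes (points, in order along each chromosome) and over each chromosome (lines); dashed lines mark 0.3 in either direction. Nearly every window of chromosomes 11, 14 and 20 lies above the upper dashed line and most of chromosome 10 below the lower one, while chromosomes 1, 2 and 5 stay near 0.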

How the data were processed

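RNA was extracted with TRIzol and libraries made with the NEBNext Ultra RNA kit, per the labels' protocols. The submitters' processing notes name STAR 2.6.1d, featureCounts 1.5.0-p3, DESeq2 1.20.0, edgeR 3.24.3 and GRCh38. The strand setting is not given in the sources used here. The deposited values used are the authors' raw counts of reads per gene, 1 table per oxygen level. The 24 libraries were fitted together with edgeR 4.0.16 (quasi-likelihood test, TMM scaling, filterByExpr over 6 groups), and p-values were adjusted by Benjamini-Hochberg over 19952 genes, with calls at an adjusted p under 0.05. CPM values (counts scaled to library size) use TMM-scaled library sizes. A fold against a group at 0 counts uses a floor of 3 counts over the group. Intervals are exact 95% binomial intervals of the split of counts between the lines, turned into a ratio, for counting error only. Gene positions are those in the deposited tables (GRCh38), and sequences are from RefSeq (GRCh38.p14) and GENCODE 29.

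The genes, gene lists and rules were chosen with earlier results of these data known. Genes named were MIR210HG and MIR210, the 10 protein-coding genes that rose most and the 10 that fell most at 5 CPM or more in the higher line, likewise 6 and 6 at 100 CPM or more and 4 and 4 long non-coding RNAs at 2 CPM or more, all with no overlap between libraries, the 3 called members of each list with the largest change, and near-identical relatives. Other genes were named for their role, or as neighbours, after their values were seen. The procedure was tested on simulated data. Alternatives were a DESeq2 1.42.0 fit, other scalings and filters, fewer libraries in the fit, a 2-fold minimum change, a replicate block and leaving out each library. Same-numbered libraries of the knockout lines had correlations of deviations of -0.362, 0.012, 0.113 and 0.138, so the numbers were not taken to pair them. Some results are not reported here.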

Additional observations from a re-analysis of the deposited data

Results flagged for a closer look

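In 25 of 216 groups of 4 libraries looked at, over the 108 named genes and both lines at 21% oxygen, 1 library stood far from the other 3. Chance alone gives this in about 1 in 20 groups of normally spread values. A group with counts in only 1 library is always flagged, so that rate does not hold for such groups. MIR210HG-KO replicate 1 was the lowest for NPC1L1 and the highest for the rest, with CPM values of 0.116 for DTX1, 0.926 for MAGEA2B, 0.733 for NPC1L1, 9.22 for PXMP4 and 0.154 for SORBS2. MIR210HG-KO replicate 2 was the highest of its group, with CPM values of 22.6 for AFF2, 0.0384 for CPNE7, 1.15 for MAGEA2 and 0.0768 for MFAP2. MIR210HG-KO replicate 3 was the lowest for ATP2B3 and RUNX3 and the highest for the rest, with CPM values of 0 for ATP2B3, 6.71 for CSAG3, 0.0373 for GALC, 0.149 for OSR1, 134 for PSMG1, 0.0746 for RBP7 and 7.75 for RUNX3. MIR210HG-KO replicate 4 was the highest of its group at 0.0410 for MDGA2 (CPM). MIR210-KO replicate 2 was the highest of its group at 0.0404 for CSAG1 (CPM). MIR210-KO replicate 3 was the lowest for AHNAK and TENM1 and the highest for the rest, with CPM values of 47.9 for AHNAK, 0.0418 for CSAG3, 0.0835 for MAGEA2, 0.0418 for MAGEA2B and 248 for TENM1. MIR210-KO replicate 4 was the lowest for EGR2 and the highest for the rest, with CPM values of 0.679 for EGR2 and 5.87 for ID1. Several of these values are 1 or 2 counts beside libraries with none.

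For 15 of the named genes the log2 difference between the lines (MIR210HG-KO against MIR210-KO) depended on oxygen, by the interaction term of the edgeR quasi-likelihood fit. The difference at 21% oxygen minus that at 1% was 0.95 for BMF, 0.71 for ID1, 1.60 for PSMD5 and 0.42 for TPP1. It was -0.61 for COL3A1, -4.26 for CPNE7, -0.40 for ENO2, -0.39 for HMGCS1, -0.49 for HOXB2, -0.39 for HRK, -0.36 for KIF1A, -0.38 for NPTX1, -2.02 for NUPR1, -0.75 for SLC1A4 and -0.42 for SNAI2.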

How the results depend on the processing

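Of the counts of genes that differed between the lines at 21% oxygen, 9814 in all, each alternative but one stayed within 1.5 times. Requiring a change of at least 2-fold in the test itself gave 1052 genes. The number whose difference depended on oxygen was 707, and 1083 with DESeq2. The cause of that increase was not tested. With each library left out in turn, the genes that differed numbered 9133 to 9691, the higher ones 4322 to 4583 and the lower ones 4792 to 5108, and those that depended on oxygen 457 to 1106. The lowest of these was without MIR210-KO replicate 2 of normoxia and the highest without MIR210HG-KO replicate 3 of normoxia. Another scaling moved the median of all genes by less than 0.1, and the higher share of calls lay between 43.5% and 50.2%, against 47.5%. With replicate number as a block, 9796 genes differed, 4639 higher and 5157 lower, and 666 depended on oxygen. More genes were lower (5149) than higher (4665), but more were higher with DESeq2 (5021 against 4976), RLE size factors (4932 against 4930), no low-count filter (5021 against 4676) and the 12 normoxia libraries alone (5200 against 4942). The fibroblast and muscle marker median went from -0.26 to 0.135 without MIR210HG-KO replicate 3. None of the 108 genes named by rule changed direction in any setting run. Other genes given in the text, such as ISCU, CHAC1 and MYC, were not followed through the settings. Of 108 named genes, 5 lost their call when some single library was left out (among them AIFM3, FGF21, ESR1 and CD14). Of 15 named genes that depended on oxygen, 6 lost that call in some setting (SNAI2, KIF1A, HRK, ID1, HOXB2 and COL3A1). Genes under about 1 CPM rest on few counts.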
